A study of Arabidopsis thaliana with 6 samples.

Results

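The 8 genes described here encode proteins that protect Arabidopsis cells against cold and water loss, regulators of that response, and a linker histone that goes with it: COR15A, COR15B, LTI30, COR47, XERICO, RD2, DI19 and HIS1-3. They were taken by name from the 13356 genes that had a probe set paired with exactly 1 gene in the platform annotation, a probe set being the group of short probes that reports a transcript. Each of the 8 had 1 such probe set, so no choice among probe sets was needed. The members were chosen by their measured log2 difference between 35S::KLU and WT arrays, COR47 as one that did not move. Their levels, differences and limma calls are therefore given below as a description, not as a test of the members.

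RNA was taken from the shoots of untreated Arabidopsis thaliana seedlings (ecotype Col-0, growth stage 1.03), kept at 21 °C with days of 16 h and nights of 8 h. The groups were 35S::KLU (3 arrays), in which the cauliflower mosaic virus 35S promoter, active in nearly all tissues, drives KLU, and wild type, written WT (3 arrays). KLU encodes the cytochrome P450 CYP78A5, which promotes organ growth. Each sample pooled 5 seedlings, the samples came from 3 independent experiments, and the genotypes shared plates. The labels do not say how many independent lines 35S::KLU stands for, and KLU transcript was not analysed here.

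Plants that sense cold make CBF transcription factors, which switch on cold-regulated (COR) genes, and loss of water acts on many of the same genes, in part through the hormone abscisic acid. Many of the products are small, hydrophilic proteins, among them dehydrins and other late embryogenesis abundant (LEA) proteins, which shield membranes and enzymes as water is withdrawn. LEA proteins are best known from maturing seeds, where they accumulate before desiccation. Linker histones bind DNA between nucleosomes, and HIS1-3 is the variant that drought and abscisic acid induce.

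Whole-array facts that bear on these genes are few. Leaf markers were bright on all arrays, with the summed signal of the 5 measured of 14 between 15.57 and 15.59 in 35S::KLU and between 15.57 and 15.63 in WT on the log2 scale. The summed signal of 3 measured root markers of 12 ran from 10.61 to 10.88 in 35S::KLU, against 10.09 to 10.57 in WT. It came mostly from PYK10, a root-rich beta-glucosidase gene that differed by 0.43 (limma adjusted p = 0.078), while the root hair expansin genes EXPA7 and EXPA18 differed by -0.17 and -0.07. The part of the root signal in the results below was not tested. The array of 35S::KLU replicate 2 stood apart on some genes, seed-type genes among them, as described below. Results that rest on that array are given without it as well. In bulk shoots, more RNA per cell and more cells that make it cannot be told apart.

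Of the 8 genes, 7 were higher in 35S::KLU past an adjusted p of 0.05 in limma's fit over all probe sets, and on each of these 7 all 35S::KLU arrays lay above all WT arrays. Over all 13356 genes, 3.51% were called higher, and 10.2% had every 35S::KLU array above every WT array. The members were chosen on this contrast, so nothing is read from their count beside these shares. COR47 was the member that was not called. The differences fell into 3 sizes: about 5-fold for COR15A, COR15B and HIS1-3, 2.75-fold for LTI30, and 1.35-fold to 1.49-fold for XERICO, DI19 and RD2.

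**Figure D1:**
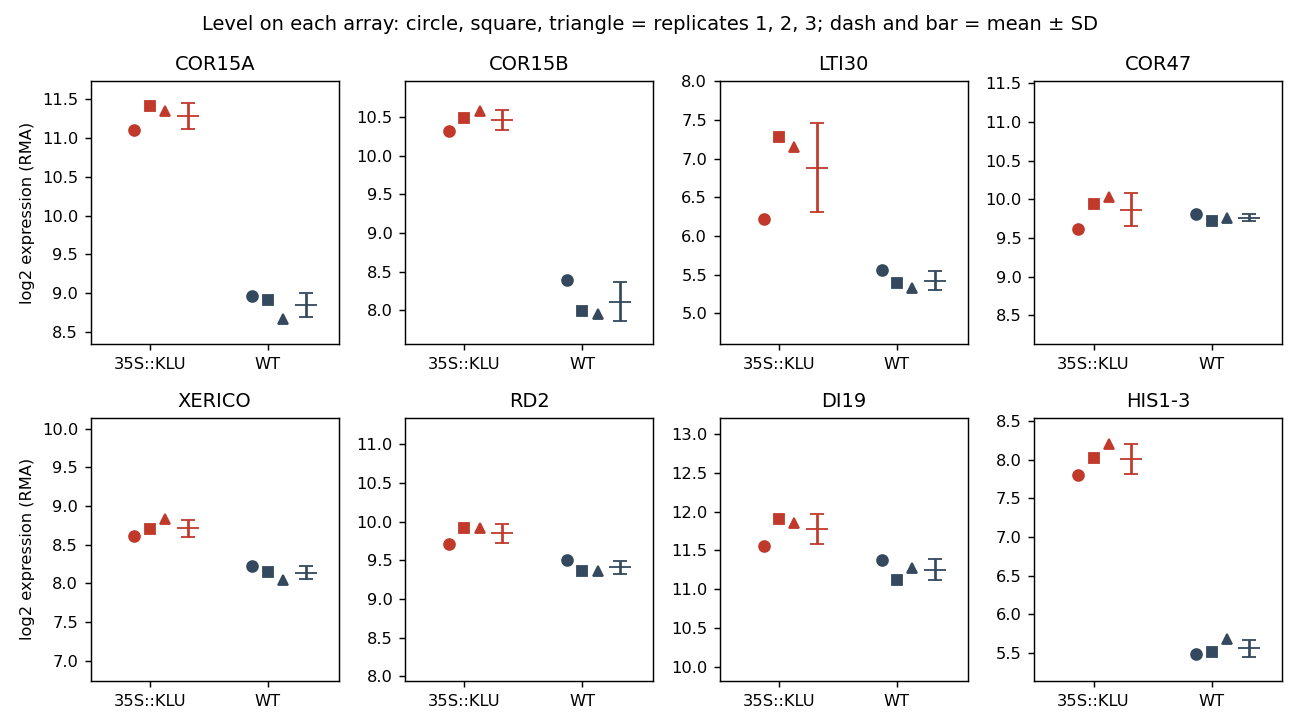
The log2 expression of each of the 8 genes is plotted on every array, with 35S::KLU to the left of WT, replicates 1, 2 and 3 as circle, square and triangle, and the mean ± SD of 3 arrays beside them; every panel spans the same height in log2 units. The genotypes are far apart for COR15A, COR15B and HIS1-3, closer for XERICO, RD2 and DI19, and overlap for COR47.

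COR15A and COR15B encode chloroplast proteins that stabilise membranes during freezing, and their genes are next to each other on the chromosome. COR15A had log2 levels of 11.10, 11.41 and 11.35 on the 35S::KLU arrays and 8.96, 8.90 and 8.67 on the WT arrays. Its lowest 35S::KLU array lay 2.14 above its highest WT array, a gap several times the range within either genotype (0.31 in 35S::KLU and 0.30 in WT). The difference was 2.44 on the log2 scale (SE 0.11), or 5.44-fold with a 95% interval from 4.61-fold to 6.41-fold.

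COR15B had log2 levels of 10.32, 10.49 and 10.57 in 35S::KLU and 8.40, 7.99 and 7.95 in WT. All 35S::KLU arrays were higher, by at least 1.92, and the spread was wider in WT (SD 0.25) than in 35S::KLU (SD 0.13), because WT replicate 1 was above the other two. The difference of 2.35 (SE 0.12) corresponds to 5.09-fold, with an interval from 4.21-fold to 6.15-fold that overlaps that of COR15A. Whether probes of either gene also bind transcripts of the other was not checked, so the pair may not be independent readings. On the other side of COR15B, AT2G42520 had a log2 level of 7.31 ± 0.07 in 35S::KLU and 7.37 ± 0.10 in WT (SD, n = 3 each), a difference of -0.05 (limma adjusted p = 0.77).

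The dehydrins LTI30 and COR47 parted. LTI30, a membrane-binding dehydrin named for its induction at low temperature, had log2 levels of 6.22, 7.28 and 7.15 in 35S::KLU and 5.56, 5.39 and 5.33 in WT. The genotypes did not overlap, but 35S::KLU replicate 1 lay about midway between the other 35S::KLU arrays and WT, so that the SD was 0.58 in 35S::KLU and 0.12 in WT. The difference was 1.46 (SE 0.23), or 2.75-fold with an interval from 1.92-fold to 3.93-fold. Leaving out 35S::KLU replicate 1 gave 1.79, and leaving out replicate 2 of the same genotype gave 1.26.

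COR47, an acidic dehydrin induced by cold and by drought, had log2 levels of 9.62, 9.94 and 10.03 in 35S::KLU and 9.81, 9.72 and 9.76 in WT. The genotypes overlapped: 35S::KLU replicate 1 was the lowest of the 6 arrays and the other two 35S::KLU arrays were the highest. The difference of 0.10 (SE 0.10) had an interval from -0.13 to 0.34, which is 0.914-fold to 1.26-fold. Without 35S::KLU replicate 1 the COR47 difference was 0.22, and it was not called there either. Its signal was far above the lower quartile of the probe sets (4.09).

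HIS1-3 showed the same size of difference as the COR15 genes. Its log2 levels were 7.81, 8.02 and 8.20 in 35S::KLU and 5.49, 5.51 and 5.68 in WT. The lowest 35S::KLU array lay 2.12 above the highest WT array. The difference was 2.45 (SE 0.11), or 5.45-fold with an interval from 4.63-fold to 6.42-fold. The list of linker histone genes held 2 others, AT1G06760 and AT2G30620, and neither was called, where 6.85% of all genes were. AT1G06760 had a log2 level of 9.85 ± 0.02 in 35S::KLU and 9.84 ± 0.15 in WT (SD, n = 3 each), a difference of 0.01 with a 95% interval from -0.18 to 0.20. AT2G30620 had 10.54 ± 0.04 in 35S::KLU and 10.52 ± 0.05 in WT, a difference of 0.02 with an interval from -0.13 to 0.17.

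Among the regulators, XERICO encodes a small RING-type zinc finger protein whose overexpression raises abscisic acid in Arabidopsis. Its log2 levels were 8.61, 8.70 and 8.83 in 35S::KLU and 8.23, 8.14 and 8.05 in WT. The genotypes were 0.39 apart at their nearest arrays, more than the range within either (0.22 in 35S::KLU and 0.18 in WT). The difference of 0.57 (SE 0.08) is 1.49-fold, with an interval from 1.31-fold to 1.69-fold.

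DI19 encodes a drought-induced zinc finger transcription factor. It had log2 levels of 11.55, 11.91 and 11.85 in 35S::KLU and 11.38, 11.12 and 11.27 in WT. The nearest arrays of the genotypes were only 0.18 apart, less than the range within 35S::KLU (0.36) or WT (0.26). The difference was 0.52 (SE 0.11), or 1.43-fold with an interval from 1.21-fold to 1.69-fold. Of 6 other genes listed for its family 4 were measured, none of them dim, and 0 were called in either direction by limma. None of the 4 had an unadjusted p under 0.05. Over all genes 6.85% were called, so 0 of 4 is not unusual. Their log2 differences lay between -0.04 (AT4G02200) and 0.02 (AT3G06760), with AT5G26990 at -0.01.

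RD2, named for its response to dehydration, had log2 levels of 9.70, 9.91 and 9.92 in 35S::KLU and 9.51, 9.36 and 9.36 in WT. Its nearest arrays were 0.20 apart, close to the range within 35S::KLU (0.22). The difference was 0.44 (SE 0.08), or 1.35-fold with an interval from 1.19-fold to 1.54-fold. RD2 and DI19 were the members that lost their calls when single arrays were left out. Without 35S::KLU replicate 2, 35S::KLU replicate 3 or WT replicate 2, neither was called, with differences of 0.40, 0.40 and 0.41 for RD2 and 0.45, 0.48 and 0.45 for DI19.

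**Figure D2:**
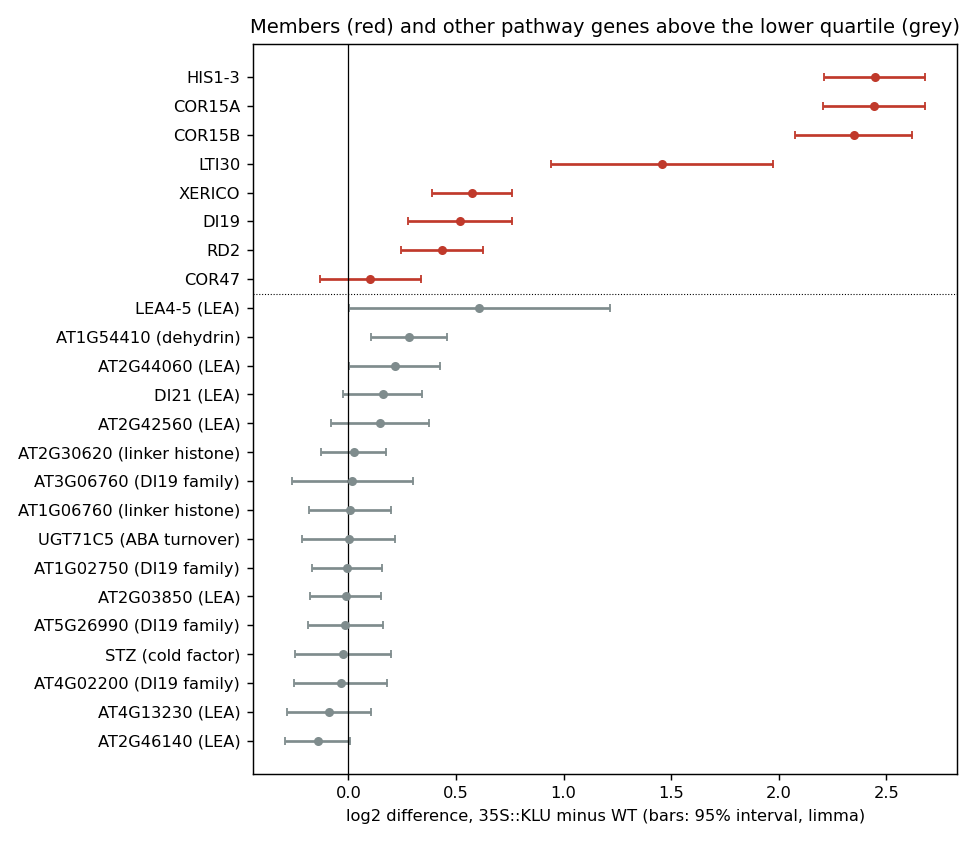
Points give the log2 difference (35S::KLU minus WT) of the 8 members in red and of the 16 other pathway genes whose mean lay above the arrays' lower quartile in grey, with 95% intervals from limma. HIS1-3, COR15A, COR15B and LTI30 lie above 0.9 over their whole interval, while the listed linker histone and DI19 family genes lie within 0.04 of 0.

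Most members also shared the lowest 35S::KLU array and the highest WT array. These are read from the same values as the differences by which the members were chosen. All 8 were lowest on 35S::KLU replicate 1 among the 35S::KLU arrays, COR47 included. Over all 22746 probe sets that array was the lowest of its genotype for 36.8%. The share was 41.8% of the 922 probe sets called higher and 32.9% of the 971 called lower. On the WT side, 7 of 8 members were highest on WT replicate 1, the exception being HIS1-3, which was highest on WT replicate 3. WT replicate 1 was the highest of its genotype for 45.4% of all probe sets, 59.4% of those called higher and 35.5% of those called lower. The replicate that was lowest in 35S::KLU therefore carried the same number as the one that was highest in WT, but the numbers were not shown to pair the samples. The 8 values on an array come from the same RNA and are not independent of each other.

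**Figure D3:**
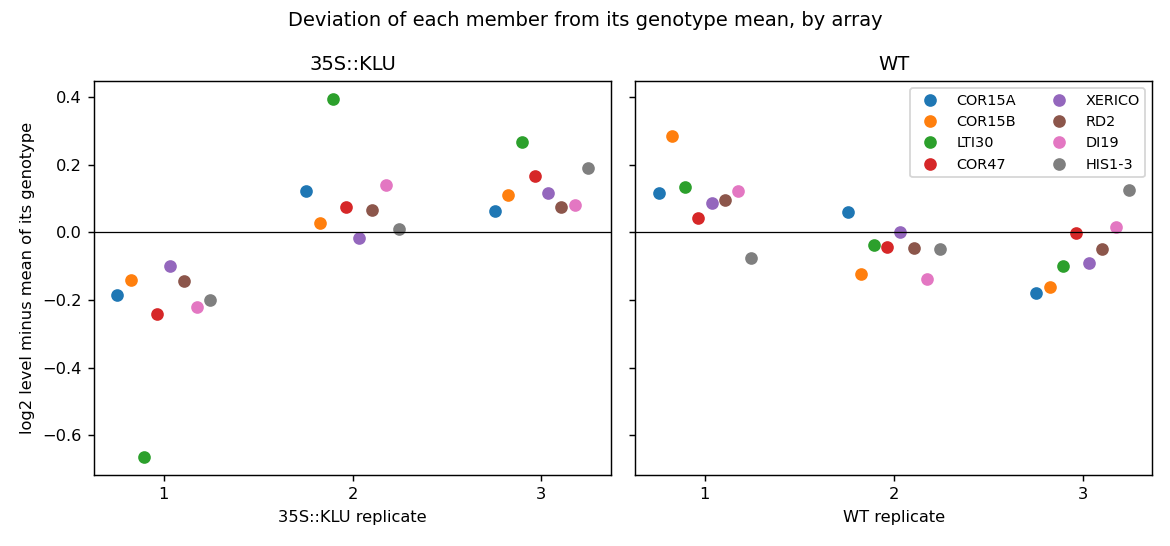
Each point is a member's log2 level on an array minus its mean over the 3 arrays of that genotype, with 35S::KLU on the left and WT on the right. All 8 points of 35S::KLU replicate 1 lie below 0, LTI30 lowest at -0.66, and 7 of 8 points of WT replicate 1 lie above 0.

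Beyond the members, 150 genes were listed for dehydrins, cold-regulated genes, cold transcription factors, LEA proteins, abscisic acid turnover and signalling, the DI19 family and linker histones, and 34 of them had a single-gene probe set. None of the 34 was called in either direction by limma, where 6.85% of all genes were; 6 had an unadjusted p under 0.05, 5 toward higher levels and 1 toward lower. Their median log2 difference was 0.03, beside -0.02 over all genes, and 22 of 34 were above 0. Without 35S::KLU replicate 2 these medians were 0.02 and -0.02. LEA18, M10, M17 and AT5G44310 were above 0 with all arrays and below 0 without that array. Among the 5, LEA4-5 and AT3G17520 fell from 0.61 and 0.46 to 0.22 and 0.23 without it, while AT2G44060 stayed near 0.21 at 0.22. The means of 18 of the 34 lay below the lower quartile of the arrays, where RMA values understate changes, so most of this pathway was seen faintly or not at all. The 47 listed genes of abscisic acid signalling and response had 0 single-gene probe sets, and the 20 cold transcription factors had 1, STZ, a zinc finger repressor, which differed by -0.03. COR27, a cold-induced gene, differed by 0.07 and AT4G33980 of the same list by 0.03, both at levels below the quartile. UGT71C5 and UGT71B6, whose enzymes attach glucose to abscisic acid, differed by 0.00 and 0.15, UGT71B6 also at a level below the quartile.

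The nearest to a call was AT1G54410, which encodes the small dehydrin HIRD11. It had log2 levels of 11.74, 11.86 and 11.77 in 35S::KLU and 11.62, 11.48 and 11.42 in WT. The genotypes did not overlap, with 0.12 between their nearest arrays. The difference was 0.28 (SE 0.08, limma adjusted p = 0.058), and it passed under 6 of 13 other settings, with adjusted p from 0.017 to 0.19. The 3 other measured dehydrins were dim, among them AT4G39130 at 0.30 (adjusted p = 0.19) and AT4G38410 at -0.19 (adjusted p = 0.18).

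LEA proteins outside the dehydrins were the best covered list, with 19 of 27 measured, 12 of them dim. Their median log2 difference was 0.14 with all arrays and -0.02 without 35S::KLU replicate 2, the median over all genes being -0.02 in both cases. The brightest were AT2G44060, recorded as LEA26, at 0.21 (adjusted p = 0.22), the drought-induced DI21 at 0.16 (adjusted p = 0.31) and AT2G46140, recorded as LEA27, at -0.14 (adjusted p = 0.26).

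On 6 of the 19 LEA genes, 35S::KLU replicate 2 stood at least 0.5 above every other array on the log2 scale, and no other array did so on any of the 19. Over all 13356 genes this array stood out by that margin on 19 genes (0.142%). Some of these, among them OSM34 and BHLH101, were in none of the lists used here. M17 had log2 levels of 2.88, 4.60 and 2.94 in 35S::KLU and 2.84, 3.00 and 2.97 in WT. LEA4-5 had 4.17, 5.48 and 4.45 in 35S::KLU and 4.21, 3.95 and 4.12 in WT. Both were raised on that single array, and their differences of 0.54 and 0.61 became -0.03 and 0.22 without it. The other 4 were AT3G15670, AT3G17520, LEA18 and AtLEA4-1; all 6 were singled out after their values were seen.

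A seed marker moved with them. PAP85, a seed storage protein gene of the vicilin type, had log2 levels of 3.59, 4.85 and 3.63 in 35S::KLU and 3.64, 3.63 and 3.72 in WT. The other measured seed marker of 13, AT3G01570, had 4.26, 4.60 and 4.48 in 35S::KLU and 4.56, 4.48 and 4.32 in WT, with no array set apart. The summed log2 signal of the pair ran from 4.96 to 5.73 in 35S::KLU and from 5.05 to 5.17 in WT. The largest such gap on this array was for ICL, the isocitrate lyase that turns stored seed oil toward sugar, at 4.66, 7.37 and 4.94 in 35S::KLU and 4.78, 4.92 and 4.88 in WT, and it too was singled out after its values were seen.

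No member stood out on that array by this margin. 35S::KLU replicate 2 was the highest of the 6 arrays for 3 of 8 (COR15A, LTI30 and DI19) and 35S::KLU replicate 3 for the other 5. Without 35S::KLU replicate 2 the log2 differences were 2.38 for COR15A, 2.33 for COR15B, 2.44 for HIS1-3, 1.26 for LTI30, 0.58 for XERICO, 0.45 for DI19, 0.40 for RD2 and 0.07 for COR47, and DI19 and RD2 were no longer called.

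**Figure D4:**
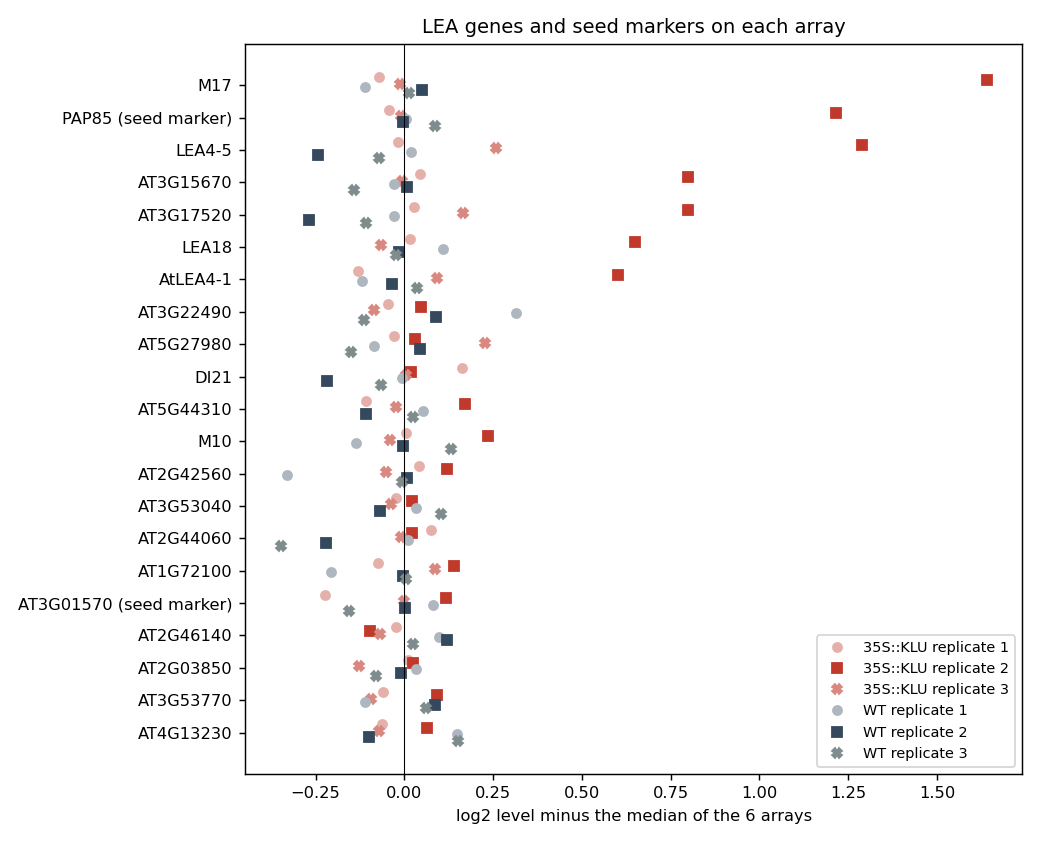
For 19 LEA genes and 2 seed markers, the log2 level on each array is shown relative to the median of the 6 arrays, with 35S::KLU arrays in reds and WT arrays in greys and the genes sorted by the gap between their highest array and the next. The squares of 35S::KLU replicate 2 stand apart to the right for M17, PAP85, LEA4-5, AT3G15670, AT3G17520, LEA18 and AtLEA4-1, and no other array stands 0.5 above the rest for any of the genes.

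Genes with the most similar profile were ranked by the root-mean-square distance between log2 profiles over the 6 arrays, each centred on its own mean, among 13348 other genes. For COR15A the nearest were AT1G80130 (distance 0.10, log2 difference 2.38), AT3G53980 (0.27, difference 2.71) and AT2G37870 (0.29, difference 1.95). Among the members, COR15B lay 0.12 from COR15A and HIS1-3 0.17 from it. As profiles were not scaled, a small distance largely reflects genotype differences of like size. Closeness among members therefore partly restates the differences they were chosen by. For LTI30 the nearest was AT5G03350 at 0.15, with log2 levels of 10.63, 11.77 and 11.66 in 35S::KLU and 10.31, 10.09 and 10.13 in WT. It shared with LTI30 the low value of 35S::KLU replicate 1. AT1G73480 (0.25, difference 1.26) and AT2G41190 (0.26, difference 1.65) followed. XERICO had close neighbours in profile, AT4G36210, AT5G18130 and AT5G16450, all at a distance of 0.05 and with differences from 0.51 to 0.58, while the closest pair of members was RD2 and DI19 at 0.08.

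Few of the genes beside the members on the chromosome were measured. Leaving out the COR15 pair itself, the members had 14 neighbouring protein-coding genes, of which 5 were measured and 0 were called by limma, nor did any have an unadjusted p under 0.05. Their log2 differences ran from -0.05 to 0.13, the upper value being that of AT1G56290 beside DI19 (adjusted p = 0.46), with AT1G20430 beside COR47 at 0.12 (adjusted p = 0.60). AT2G21630 beside RD2 differed by 0.03. The dehydrin genes next to COR47 and LTI30, ERD10 and XERO1, were not analysed here.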

How the data were processed

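Shoots of 35S::KLU and WT seedlings were hybridised to single-colour Affymetrix ATH1 arrays, 1 per sample. The deposited table holds log2 values made by the authors with RMA (background correction, quantile normalization and summary over probes), which the submitters' processing notes name without a version. Of 22810 probe sets, 64 controls were left out and 22746 tested, with no filter. Names came from the platform annotation (13513 probe sets with 1 gene, 503 with several, 8730 with none listed), updated through RefSeq TAIR10.1 for 13436. No coordinates are given here, and chromosomal neighbours were taken from the order of protein-coding genes in RefSeq.

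Differences are 35S::KLU minus WT, fitted with limma 3.58.1 (lmFit, eBayes) in R 4.3.3, with p-values adjusted by Benjamini-Hochberg across every probe set. A ± is an SD over 3 arrays. Pandas 2.3.3 and matplotlib 3.10.9 were used, and the fit was tested on simulated data. The number of arrays limits the precision. The members and the lists were chosen with earlier results of these data known, and list membership of loci without a symbol was not checked against an annotation. The rule for named genes took the members, the brightest genes not called in each list, the 3 nearest profiles of COR15A, LTI30 and XERICO, and chromosomal neighbours. Promoter motifs were planned but not used here.

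Deviations from genotype means correlated at -0.20, 0.04 and -0.06 between arrays with the same replicate number, so the numbers were not taken to pair samples. With 3 arrays per genotype, such correlations cannot show that pairing by experiment was absent. The alternatives were 3 other scalings, array quality weights, the replicate block, leaving out each array, a filter on dim probe sets and other eBayes settings.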

Additional observations from a re-analysis of the deposited data

How the results depend on the processing

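Under 13 other settings the calls of COR15A, COR15B, LTI30, XERICO and HIS1-3 held in all 13, RD2 held in 10 and DI19 in 9, and COR47 was called in 0. All 8 differences kept their sign, in genes that were chosen on this same contrast. The number of members called, 7 with all arrays, was 5 to 7 on leaving out single arrays and 6 with the replicate number as a block (DI19 lost), and the numbers were not shown to pair the samples (0 of 3 35S::KLU arrays correlated best with the WT array of the same number). With the replicate block 1279 probe sets were called, against 1893 without it, 647 of them lower (971 without it).

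Array quality weights called 2978 probe sets, 1433 higher and 1545 lower. On leaving out single arrays the count ran from 906 to 1962, with 447 to 1030 higher and 459 to 932 lower. It was 906 without WT replicate 2, 1219 without 35S::KLU replicate 2, 1142 without 35S::KLU replicate 3 and 1236 without WT replicate 3. Of the other pathway genes 0 were called with all arrays, and 2 with array quality weights (AT1G54410 and AT3G17520). AT3G17520 is among the LEA genes that stood out on 35S::KLU replicate 2, and its difference of 0.46 became 0.23 without that array. With cyclic loess, median-centring, quantile normalization or trend and robust eBayes the count of pathway genes called was 1 each, AT1G54410. On leaving out single arrays it was 0 to 2: AT4G39130 without 35S::KLU replicate 1, and AT1G54410 and AT2G44060 without WT replicate 1. The causes of these changes were not tested. Averaging the probe sets of a gene changes nothing here, as every member and every measured listed gene had 1 single-gene probe set.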
